A study of Mus musculus with 2 samples.

Results

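The 10 genes described here encode the enzymes that make serine and pass its carbon into the folate pool, together with 1 carrier that brings folate into mitochondria. They were chosen by name, with earlier results of these data known. The probe sets used are those of the array that carry exactly 1 gene symbol, the symbol being 1 of the 10. This gave 25 probe sets of the 34945 with 1 symbol, and the 10 genes stand among 18193 genes with such a probe set. Slc25a32 is a transporter and not an enzyme, and is described apart from the others.

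The study profiled MOS-J, an established mouse osteosarcoma line, on Affymetrix mouse expression arrays. The control group is 1 sample of MOS-J cells that received the control lentivirus, and the DKK1 group is 1 sample of MOS-J cells that received a lentivirus with human DKK1, a secreted antagonist of canonical Wnt signals that acts at the LRP co-receptors. Both were grown in the same medium with serum. The protocols give several routes, lentiviral delivery with clones selected by G418 and plasmid transfection with selection by blasticidin, followed by a red fluorescent mitochondrial label and sorting. The labels name a lentivirus for both samples. They do not say which selection, labelling and sorting steps the profiled cells went through, nor how many clones the DKK1 cells hold. A difference between the arrays therefore cannot be told apart from one between clones. The question is how expression of these genes differs between the 2 samples. With 1 array per group there is no replicate error and no p-value, and every statement below compares these 2 arrays.

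Serine is made from the glycolytic intermediate 3-phosphoglycerate by PHGDH, PSAT1 and PSPH in turn. Serine hydroxymethyltransferases split serine into glycine and a carbon unit bound to tetrahydrofolate, in mitochondria (SHMT2) or in the cytosol (SHMT1). The mitochondrial arm, of SHMT2, MTHFD2, MTHFD1L and ALDH1L2, oxidises these units to formate or carbon dioxide and yields reduced cofactors, and the cytosolic arm uses formate to supply purine and thymidylate synthesis. Many tumours and cycling cells express the mitochondrial enzymes strongly, and the stress factor ATF4 is a known activator of most of these genes.

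The regions just before the transcription start of the genes are shown because most of the genes differed together between the arrays. RefSeq sequences (GRCm38.p6) were matched for 8 of the 10 genes, with 9 starts in all, since Psat1 has more than 1. Aldh1l2 and Slc25a32 had no such sequence, so the motif counts below leave them out. The 250 bases before the start are given 5′ to 3′ for Mthfd2, which held the most CCAAT boxes, for the first start of Psat1, and for the paralogs Shmt2 and Shmt1, of which the former held none. Capitals mark each match to CCAAT or, on the opposite strand, to its complement.
Mthfd2, chr6:83317605-83317854, minus strand: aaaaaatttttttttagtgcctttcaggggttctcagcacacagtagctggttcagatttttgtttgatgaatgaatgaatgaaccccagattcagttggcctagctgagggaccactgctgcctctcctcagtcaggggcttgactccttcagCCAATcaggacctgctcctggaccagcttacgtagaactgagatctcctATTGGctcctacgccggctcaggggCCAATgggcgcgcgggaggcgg
Psat1, chr19:15925060-15925309, minus strand: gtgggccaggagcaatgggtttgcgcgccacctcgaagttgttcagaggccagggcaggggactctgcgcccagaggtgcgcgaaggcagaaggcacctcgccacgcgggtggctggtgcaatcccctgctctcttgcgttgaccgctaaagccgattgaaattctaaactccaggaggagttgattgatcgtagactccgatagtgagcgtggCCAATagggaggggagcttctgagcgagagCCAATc
Shmt2, chr10:127522445-127522694, minus strand: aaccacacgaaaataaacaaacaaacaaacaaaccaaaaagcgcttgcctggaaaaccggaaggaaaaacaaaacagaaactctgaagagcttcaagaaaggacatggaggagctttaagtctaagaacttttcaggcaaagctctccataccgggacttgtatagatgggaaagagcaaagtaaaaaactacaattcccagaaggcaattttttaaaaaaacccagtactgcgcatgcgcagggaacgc
Shmt1, chr11:60811266-60811515, minus strand: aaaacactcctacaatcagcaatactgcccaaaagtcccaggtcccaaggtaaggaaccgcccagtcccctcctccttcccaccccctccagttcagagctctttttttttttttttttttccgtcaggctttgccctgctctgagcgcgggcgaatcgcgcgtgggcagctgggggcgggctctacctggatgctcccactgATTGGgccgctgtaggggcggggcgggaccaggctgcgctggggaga

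A set of 4 short motifs was searched on both strands in these 250 bases. The CCAAT box (CCAAT), to which the factor NF-Y binds, was found in 6 of the 9 promoters, each of a different gene, and in 33.8% of the 32851 promoters in the table. Mthfd2 had 3 such matches, at 96, 47 and 22 bases before the start, and Phgdh, Psph and Psat1 each had more than 1. The core of the C/EBP-ATF response element, the letters TGATGNAA, was found in 0 of the 9 promoters and in 3.45% of all promoters. The E-box (CACGTG), which MYC and related factors bind, was found in 0 of the 9 and in 6.02% of all. The core of the cyclic AMP response element (TGACGT) was found for 1 gene, Mthfd1l, starting 13 bases before the start, and in 6.47% of all promoters. The motifs do not overlap in these promoters, and a match is only a match of letters in this window.

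The values are MAS5 signals, intensities on a linear scale with 1 signal per probe set. To compare the arrays, 16.6 (the 25th percentile over all signals) was added to each signal, and log2 of the control value was subtracted from log2 of the DKK1 value. This added constant draws the differences of dim genes towards 0. A fold given for a gene includes it, and a fold given for a single probe set with its signals is their plain ratio. A probe set counted as measured where its mean signal over both arrays reached 71.3, the median over all probe sets. Measured probe sets of a gene were averaged to give its difference. A gene is called lower or higher where this difference is at least 1 (2-fold) and all its measured probe sets have that sign. Of 11058 measured genes, 6.91% were called lower and 11.7% higher, and the median difference was 0.10. Probe sets of the same gene had a pooled SD of 0.45 over all genes with several of them, a figure for agreement within the arrays that says nothing about separate cultures.

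Both arrays were scaled to a mean signal of 500.0 without the highest and lowest 2%, so a shift shared by all genes cannot be seen. The split of calls depends on this scaling. Higher genes made up 62.9% of calls as deposited, 51.4% after median centring, 51.1% after quantile normalization, 85.6% if the hybridisation spike-ins set the scale and 16.6% if the poly-A spike-ins did. The median over all genes then moved to 0.45 (hybridisation spike-ins) and −0.50 (poly-A spike-ins). The median of the 10 genes minus that of all genes lay between −2.46 and −2.10 over 11 alternatives. Median centring and the spike-in scalings move all genes nearly alike, so they could hardly change this value. Of the osteoblast markers, 4 were measured (Sp7, Alpl, Col1a1 and Col1a2) with differences of 0.05 to 0.79, while Ibsp was not measured. The probe sets of Col1a2 went both ways, and its brightest read 31456 and 24640 (−0.35). Those of Col1a1 gave 0.05 and 1.54. The summed signal of the osteoblast list was 44768 in the control sample and 42573 in the DKK1 sample. Among leukocyte markers 5 of 9 were measured, and 4 of these 5 were higher in the DKK1 sample, with a median difference of 0.47. The DKK1 array also had the higher array-wide median, 78.6 against 62.6 on the control array. The measured osteoblast, endothelial and epithelial markers all had positive differences too. A positive gene difference was therefore not particular to leukocyte markers, though some of these genes passed the filter only through the DKK1 array, as given below. Lyz2 was called higher (14.5 and 136) and Laptm5 lower (113 and 44.2), while Cd68 (0.48), Csf1r (0.45) and Cd14 (0.47) were not called. Lyz2 and Laptm5 each reached the filter only through the array where the signal is high, so their calls rest on a dim signal. The other probe sets of Laptm5 were below the filter. Ptprc, Adgre1, Itgam and Tyrobp were below the filter. The summed signal of the leukocyte list was 1158 in the control sample and 1477 in the DKK1 sample over all its probe sets. Over the measured ones it was 818 and 1156. The endothelial list had 1 measured gene, Kdr (0.68), and the epithelial list 2, Epcam (0.21) and Krt8 (0.82), none called. Kdr (66.0 and 116) and 1 of the 2 measured probe sets of Krt8 (41.4 and 101) reached the filter only through the DKK1 array. That filter favours a positive sign for them. Epcam rests on 1 of its 2 probe sets. The part of other cell types in the results was not tested.

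Of the 10 genes, 9 were called lower in the DKK1 sample and 0 higher, against the 6.91% of all measured genes called lower. Because the 10 were chosen with earlier results of these data known, this contrast describes them and is not independent evidence. As deposited, all 23 measured probe sets had the lower signal in the DKK1 sample, 19 of them by at least 2-fold with the added constant and 20 by the plain ratio, and in all 23 both signals were above the filter. The median difference of the 10 genes was −2.14, against 0.10 over all measured genes. Of the 10, 7 lay in the 2765 brightest measured genes, where the mean signal is at least 1308 and where 10.3% of genes were called lower and 10.2% higher. Genes at least 4-fold lower made up 1.33% of all, and 6 of the 10 were among them: Aldh1l2, Psph, Mthfd2, Psat1, Phgdh and Shmt2.

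**Figure D1:**
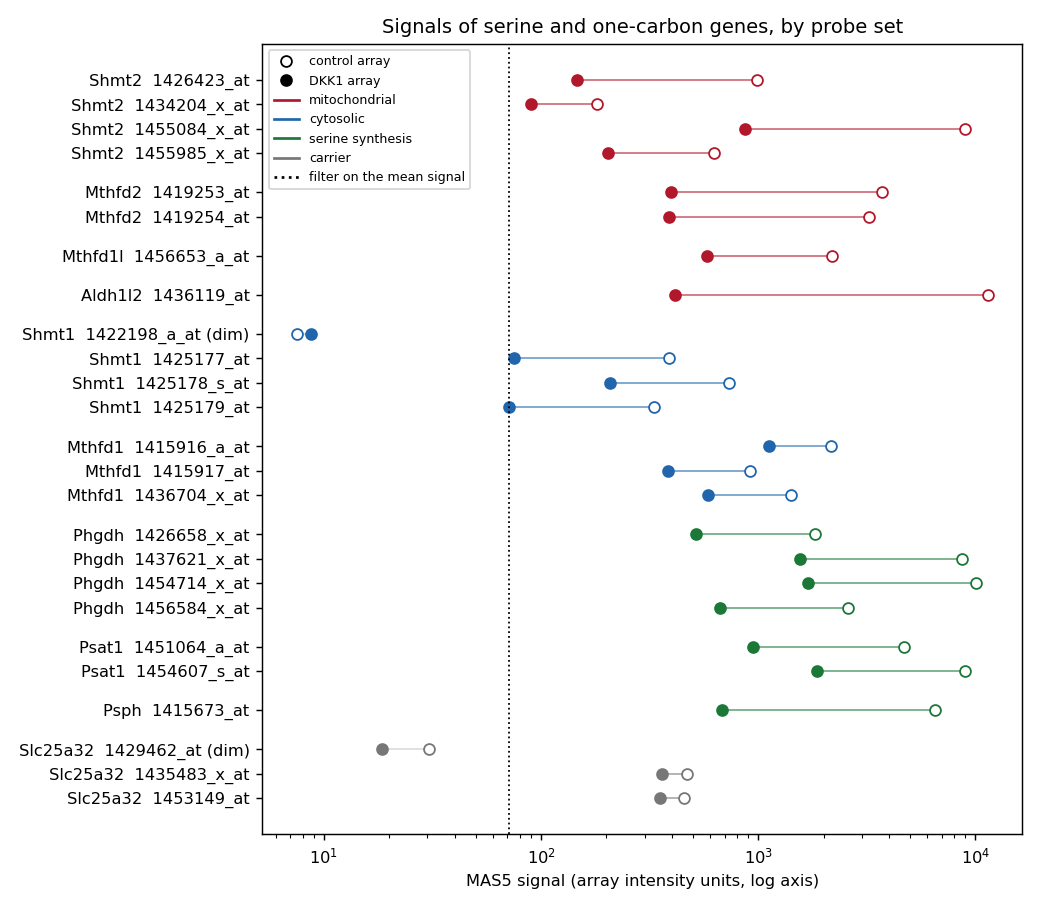
MAS5 signal (log axis) of each probe set of the 10 genes in the control sample (open circles) and the DKK1 sample (filled circles), coloured by compartment, with the filter of 71.3 as a dotted line. In all 23 measured probe sets the filled circle lies to the left of the open one, and the 2 dim probe sets lie below the filter.

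The mitochondrial enzymes were all lower in the DKK1 sample. Aldh1l2 encodes the dehydrogenase that oxidises 10-formyltetrahydrofolate to carbon dioxide and yields NADPH. Its 1 probe set had a signal of 11426 in the control sample and 415 in the DKK1 sample, 27.5-fold lower as a plain ratio, with a difference of −4.73. It ranked 7 from the lowest among the 11058 measured genes. Of the 9519 genes with every measured signal above the filter it was the lowest, so its place does not rest on a dim signal. The 5 such genes with the nearest difference were Trib3 (−4.13), Renbp (−4.03), Atf3 (−3.78), Ero1a (−3.65) and the mitochondrial carrier gene Slc25a33 (−3.65). With 2 arrays this likeness is only a like difference between them.

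Mthfd2 encodes the dehydrogenase and cyclohydrolase of the mitochondrial arm, an enzyme of embryonic and tumour cells that most adult tissues express weakly. Its first probe set read 3707 in the control sample and 399 in the DKK1 sample. The second read 3255 and 387, nearly the same fold. The difference was −3.09 (SD 0.10 between 2 probe sets), 8.52-fold lower, and it ranked 43 from the lowest.

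Shmt2, the mitochondrial hydroxymethyltransferase gene, had 4 measured probe sets that were lower by unequal amounts. The brightest read 8955 in the control sample and 865 in the DKK1 sample, 10.4-fold lower. The others went from 993 to 147, from 626 to 202 and from 181 to 90.4, or 6.77-fold, 3.09-fold and 2.01-fold lower. The gene's difference was −2.10 (SD 1.10 between 4 probe sets). This spread is above the pooled SD, and the brightest and the dimmest probe set stood farthest apart. Of the 4, 3 are of the x_at kind, whose probes may also match other transcripts, and the remaining one gave −2.63.

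Mthfd1l encodes the synthetase that releases formate in mitochondria. Its 1 probe set read 2191 in the control sample and 582 in the DKK1 sample. The difference of −1.88, 3.69-fold lower, was the smallest of the 4 mitochondrial enzymes.

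Both cytosolic enzymes were called lower as well. Shmt1, the cytosolic hydroxymethyltransferase gene, read 388, 736 and 332 in its 3 measured probe sets in the control sample and 75.3, 208 and 71.4 in the DKK1 sample. Each of the 3 was lower in the DKK1 sample, where 2 of the signals sit close to the filter of 71.3. The difference was −1.96 (SD 0.20), 3.88-fold lower. The remaining probe set was dim on both arrays, at 7.51 and 8.72, and with it included the call ended because of its opposite sign, at −1.45.

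Mthfd1 encodes the cytosolic enzyme with synthetase, cyclohydrolase and dehydrogenase activity, which turns formate into the folate forms used for purine and thymidylate synthesis. Its 3 probe sets read 2169, 913 and 1424 in the control sample and 1122, 383 and 586 in the DKK1 sample. The difference was −1.14 (SD 0.17), 2.20-fold lower, the smallest among the 9 genes called. With hybridisation spike-ins as the scale (−0.78), or with the brightest probe set alone (−0.94), it was not called.

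**Figure D2:**
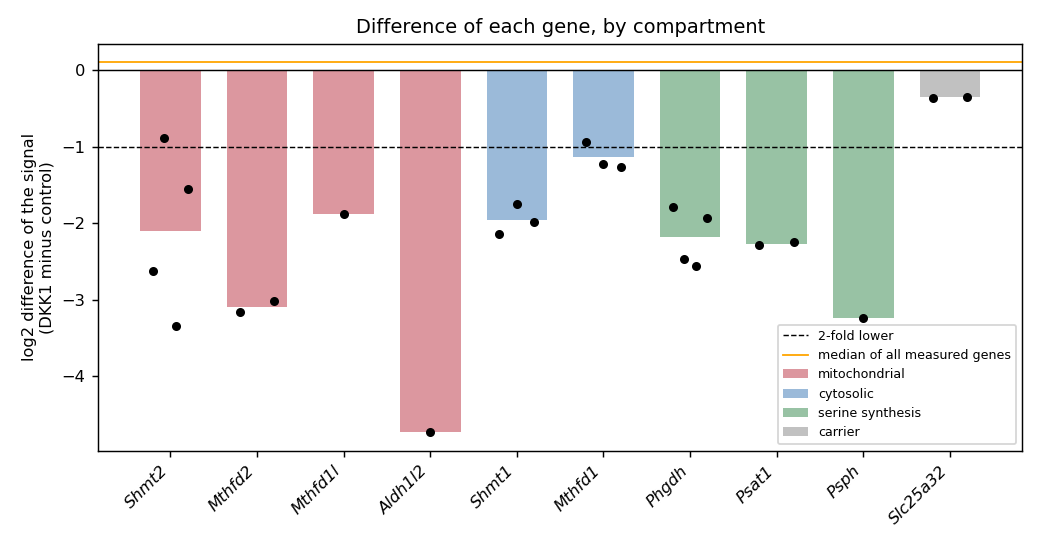
log2 difference of the signal (DKK1 minus control) of each gene as a bar, with its measured probe sets as points, the 2-fold line dashed and the median of all measured genes in orange. Aldh1l2 at −4.73 is the lowest and Slc25a32 at −0.35 the highest, and the 4 probe sets of Shmt2 are spread the most.

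Set against each other, the mitochondrial enzymes had a median difference of −2.60 and the cytosolic ones −1.55, a gap of −1.05. This gap lay between −1.91 and −1.02 over 11 alternatives, of which median centring and the spike-in scalings could hardly change it. The 2 groups of genes overlapped, since Shmt1 (−1.96) was lower than the mitochondrial Mthfd1l (−1.88), an order that turned under 5 alternatives. These were the larger pseudocount, no filter, the stricter filter, the brightest probe set and poly-A scaling. Without Aldh1l2, or without Mthfd2, the gap was −0.56, and without Shmt2, or without Mthfd1l, it was −1.54. When the serine synthesis enzymes, which are cytosolic too, were counted with Shmt1 and Mthfd1 the gap was −0.42. Within paralogs the gap was unequal. Shmt2 and Shmt1 differed by −0.15, less than the spread between the probe sets of Shmt2, and the ranges of their probe sets overlapped. Mthfd1l was lower than Mthfd1 by a further −0.74 and Mthfd2 by −1.95, with no overlap between probe sets of each pair, where Mthfd1l has 1 probe set. These gaps compare genes on the same arrays and have no replicate error.

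The 3 enzymes of serine synthesis were also called lower, each by more than Shmt1 and Mthfd1 as deposited. Psph encodes the phosphatase of the last step. Its 1 probe set read 6519 in the control sample and 679 in the DKK1 sample, 9.60-fold lower, with a difference of −3.23. This put it next to Aldh1l2 among the 10 genes, at rank 37 from the lowest of all measured genes.

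Psat1 encodes the aminotransferase of the second step. Its probe sets read 4711 and 8926 in the control sample and 951 and 1867 in the DKK1 sample. Both gave nearly the same difference, with a mean of −2.27 (SD 0.03), 4.82-fold lower.

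Phgdh encodes the dehydrogenase that commits 3-phosphoglycerate to serine. Its 4 probe sets read 1824, 8689, 10029 and 2592 in the control sample and 518, 1562, 1689 and 671 in the DKK1 sample. Each of the 4 was lower in the DKK1 sample. The difference was −2.18 (SD 0.39), 4.54-fold lower, and the 2 brighter probe sets gave −2.46 and −2.56 against −1.78 and −1.92 for the others. All 4 are of the x_at kind and 2 further probe sets that also carry the symbol of a predicted gene were left out, so signal from near-identical copies cannot be told apart from Phgdh and its value is uncertain.

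The carrier gene Slc25a32, whose product brings folate into mitochondria, was the 1 gene of the 10 not called. Its measured probe sets read 469 and 456 in the control sample and 362 and 355 in the DKK1 sample. The difference was −0.35 (SD 0.01), and 25.3% of all measured genes were at or below it. On the scaling by hybridisation controls it was 0.0043, the only change of sign among the 10 genes, and with poly-A scaling it was −0.96. As deposited, the DKK1 sample had lower signals for the enzymes on both sides of the mitochondrial membrane, and the carrier between them was 1.28-fold lower.

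**Figure D3:**
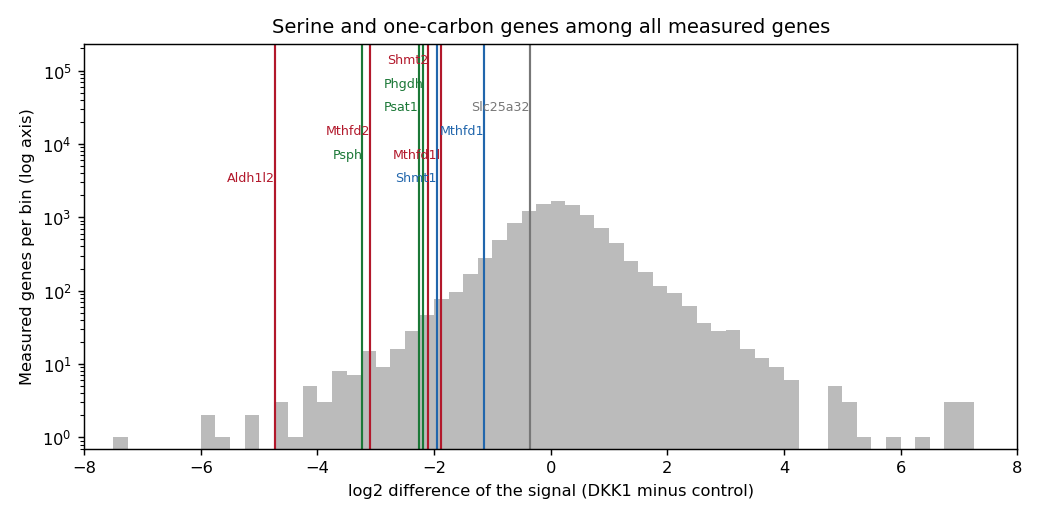
Number of measured genes (log axis) by log2 difference of the signal (DKK1 minus control) in bins of 0.25, with the 10 genes as vertical lines coloured by compartment (red mitochondrial, blue cytosolic, green serine synthesis, grey carrier). Aldh1l2, Psph and Mthfd2 lie in the lower tail, and Slc25a32 lies within the main body of genes.

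The 10 genes lie on 8 chromosomes, and 3 of the 4 mitochondrial enzymes (Shmt2, Mthfd1l and Aldh1l2) are on chromosome 10. The other 545 measured genes of chromosome 10 had a median difference of −0.04, with 9.72% called lower. The other 404 of chromosome 19, which holds Psat1, had a median of 0.50, the highest of the 8 chromosomes, with 4.21% called lower.

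Other genes of folate, serine and methionine metabolism were taken from 5 lists of 43 genes in all, of which 37 had a probe set used here and 27 were measured. Of these 27, 7 were called lower and 1 higher, against 6.91% and 11.7% of all measured genes, with a median of −0.16. The share lower depends on the scaling, with 2 of 27 on the hybridisation controls and 11 of 27 on the poly-A controls, where 3.62% and 23.1% of all genes were called lower.

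Genes of folate uptake, storage and reduction had 0 of 4 called, against 6.91% of all genes lower and 11.7% higher. The folate transporter gene Slc19a1 had probe sets that went both ways (−0.34, SD 1.32 between 3). The brighter ones went from 2078 to 972 (−1.08) and from 1083 to 490 (−1.12), and the dim one from 49.9 to 135 (1.19). The gene was called lower with the stricter filter (−1.10) and with the brightest probe set alone (−1.08). The proton-coupled transporter gene Slc46a1 was at 0.15 and Fpgs, which adds the glutamate tail that keeps folate in the cell, at −0.31. Ggh, which removes that tail, was at 0.69 with signals of 2060 and 3344.

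Among other cytosolic folate enzymes 1 of 6 was called, lower, against 6.91% of all genes. This was Atic (−1.24, SD 0.72 between 2 probe sets), which uses 10-formyltetrahydrofolate in the last steps of purine synthesis, and its brighter probe set read 6692 and 1987. Its call ended on the scaling by hybridisation controls (−0.88). Gart, which uses the same donor earlier in purine synthesis, was at −0.59 (SD 0.28 between 4). Mtrr, which reactivates methionine synthase, was at −0.76. Methionine synthase (Mtr, 0.07), Mthfsd (0.17) and thymidylate synthase (Tyms, 0.32) were nearer 0. The Tyms value rests on 1 of 4 probe sets, with signals of 73.1 and 95.1 close to the filter, so it says little about this gene. Aldh1l1, the cytosolic relative of Aldh1l2, was not measured, with signals of 2.78 to 29.9 in the control sample and 5.73 to 48.0 in the DKK1 sample.

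Other mitochondrial genes of folate and glycine went in both directions. Gcsh, the carrier protein of the glycine cleavage system, was called lower, with signals of 6272 and 2831 (−1.14), and this ended on the scaling by hybridisation controls (−0.77). Dld, the shared lipoamide dehydrogenase, was at −0.71, Mtfmt, which formylates the initiator tRNA, at 0.08 and Sardh, sarcosine dehydrogenase, at 0.48. Mthfd2l, the isoform of Mthfd2 that adult tissues express, was higher in all 4 of its probe sets as deposited but not called, at 0.98 (SD 0.54). It passed 2-fold under 4 alternatives (1.02 to 1.34) and was at 0.36 with poly-A scaling. Mthfd2 was lower than Mthfd2l by a gap of −4.07 between their differences.

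Among genes of serine and glycine transport and use 3 of 8 were called lower and 1 higher, against 6.91% and 11.7% of all genes. The lower ones were plasma membrane carriers: Slc1a5, a carrier of neutral amino acids (−1.74), Slc1a4, a carrier of alanine, serine and cysteine (−1.56, SD 1.09 between 3), and Slc6a9, a glycine transporter (−1.24, SD 1.04 between 2). The call of Slc6a9 ended on the scaling by hybridisation controls (−0.88). The sideroflexin genes, whose proteins carry serine into mitochondria, did not go the same way. Sfxn3 was called higher, with signals of 1154 and 3927 (1.75), and Sfxn1 was at 0.06 (from 2715 to 2841 and from 2029 to 2117 in its 2 probe sets). Serine racemase (Srr, 0.40) and the serine palmitoyltransferase genes Sptlc1 (−0.16) and Sptlc2 (0.38), which use serine, were not called.

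In the methionine cycle and transsulfuration 2 of 4 genes were called lower, against 6.91% of all genes. Cth, which makes cysteine from cystathionine, read 4543 and 1788 (−1.34), and Ahcy, which clears S-adenosylhomocysteine, read 3765 and 1792 (−1.06). Neither was called when the hybridisation spike-ins set the scale, at −0.97 and −0.69. Ahcyl1 was at −0.57 and Mat2b at −0.15. Cbs, which uses serine in the step before Cth, was not measured.

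**Figure D4:**
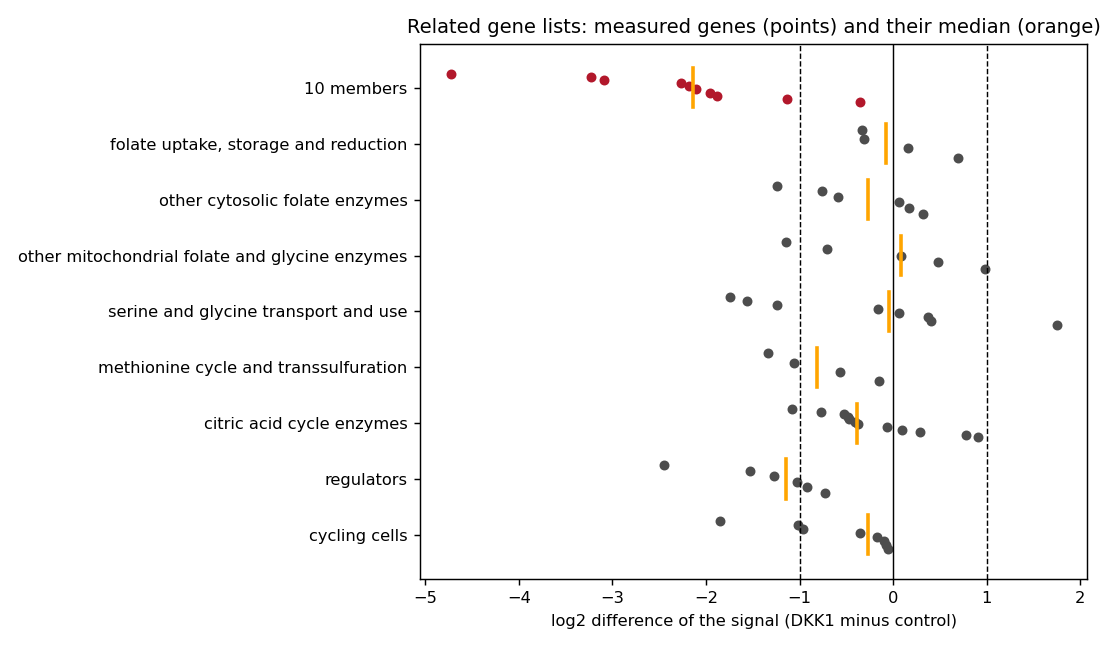
log2 difference of the signal (DKK1 minus control) of each measured gene (points) and the median (orange) for the 10 genes and 8 related lists, with dashed lines at 2-fold. The median of the 10 genes lies at −2.14, and those of the other lists lie between −1.15 and 0.08.

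Citric acid cycle enzymes, which share the mitochondrial matrix, had 1 of 12 called, lower, against 6.91% of all genes. This was Sucla2 (−1.08, not called at −0.71 with hybridisation scaling or at −0.23 with its dim probe sets included). The median of these enzymes was −0.39 (lowest −1.08, highest 0.91). None of them reached the differences of Shmt2, Mthfd2, Mthfd1l and Aldh1l2. Markers of cycling cells had a median of −0.26. Of 8 measured, the replication genes Mcm2 (−1.85) and Mcm5 (−1.02) were called lower, against 6.91% of all genes. Mcm5 lost its call under 4 alternatives (−0.98 to −0.68). Mki67 (−0.06), Top2a (−0.08), Rrm2 (−0.10), Cdk1 (−0.18), Pcna (−0.35) and Bub1 (−0.96) were not called. The part of the cell cycle in the lower folate genes was not tested.

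Of 6 measured regulators 4 were called lower. Atf4 encodes the factor named above as an activator of these genes, and its 2 measured probe sets went from 17447 to 7409 and from 17271 to 6911 (−1.28, SD 0.06). Ddit3, another stress factor gene, was at −2.45 (SD 1.14 between 2), Myc at −1.53 and Nfe2l2, which encodes NRF2, at −1.02. With hybridisation scaling Atf4 (−0.90) and Nfe2l2 (−0.67) were not called, nor was Atf4 with its dim probe set included (−0.89) or Nfe2l2 with the larger pseudocount (−0.92). Atf5 (−0.92) and Mdm2 (−0.73) were not called. Their part in the result was not tested.

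**Figure D5:**
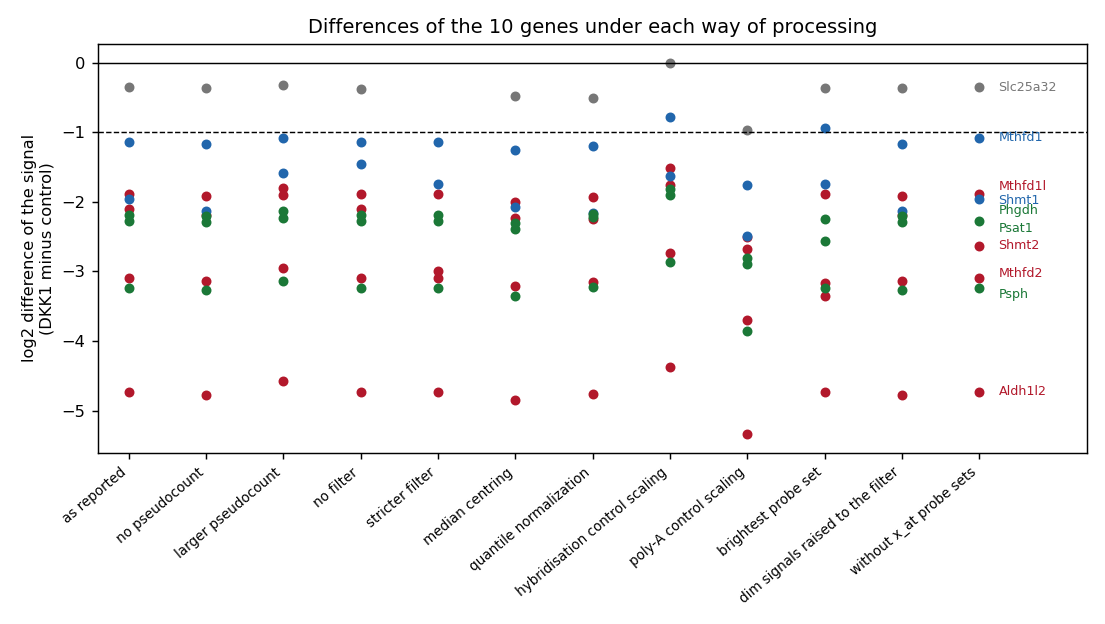
log2 difference of the signal (DKK1 minus control) of each of the 10 genes as reported and under 11 alternatives, coloured by compartment as before, with the 2-fold line dashed. Aldh1l2 stays the lowest throughout, Mthfd1 crosses the 2-fold line under 2 alternatives, Slc25a32 reaches 0.0043 with hybridisation scaling, and a gene left without a measured probe set has no point.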

How the data were processed

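Per the labels' protocols, 500 ng of total RNA per sample went into biotin labelling from the 3′ end. The deposited intensity values are linear, 1 signal for each of 45101 probe sets, made with MAS5 per the submitters' processing notes. Its version was not given in the sources used here, and the table used holds no detection calls. Symbols were those of the platform annotation, checked by gene ID against RefSeq (GRCm38.p6; 34741 of 34945 probe sets with 1 symbol matched, 0 changed), and 932 probe sets with several symbols were left out.

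Log2 differences, calls and counts were computed with Python 3.11.15, numpy 2.4.6 and pandas 2.3.3, and the calling was tested on simulated data. With 1 array per group no test was run, and depth is limited by the number of arrays. The 10 genes, the related lists and the alternatives were chosen with earlier results of these data known. The genes named are all 10, every called gene of a related list, every measured gene of those lists with at most 8 measured, the measured cell type markers, and the 5 nearest to Aldh1l2. Dropping x_at probe sets was added after seeing the data.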

Additional observations from a re-analysis of the deposited data

How the results depend on the processing

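Of the 108 values of the 10 genes under 11 alternatives, 104 kept their sign and stayed called or not called as before. The exceptions are Mthfd1 and Shmt1, given above, and Slc25a32, which was 0.0043 on the scaling by hybridisation controls. Slc19a1 also changed sign there, to 0.0192. The median difference of the 10 genes was −1.79 to −2.74, the latter with poly-A scaling. The gap between mitochondrial and cytosolic enzymes was −1.60 with the stricter filter (a mean signal of 427) and −1.91 with the brightest probe set alone. The related genes called lower were 2 with hybridisation scaling and 11 with poly-A scaling. Over all genes 764 were called lower and 1293 higher, against 400 and 2387 with hybridisation scaling and 2557 and 509 with poly-A scaling. The hybridisation controls differed by a median log2 ratio of −0.37 and the poly-A controls by 0.64, so both scalings shift all genes by construction. Phgdh has no value without x_at probe sets, and Slc25a32 none with the stricter filter. No paired analysis was possible because each group has 1 array, and for the same reason no replicate could be left out.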
